A study of Anolis sagrei with 15 samples.

Results

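The Notch ligands, receptors and targets described here are the gene models of the brown anole, *A. sagrei*, that carry the symbols NOTCH1, NOTCH2, DLL1, DLL4, JAG1, JAG2, HES1, HES5 and HEY1. Members were taken by symbol from the count table, with case ignored and every copy of a repeated symbol kept. Of the 9 symbols, 8 were found, on 13 of the 20235 gene models in the table, and 9 of the 13 held enough reads to be tested. NOTCH2 had no match and is not analysed here.

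The libraries were made from the posterior globe, the back wall of the eye that holds the retina and the tissues behind it, of embryos at Sanger stage 16.5. There were 15 libraries, 5 from the temporal, 5 from the nasal and 5 from the central region. The labels name no treatment, and the embryos were of mixed sex, from wild-caught parents. The methods describe pools of tissue from 3 embryos. The labels number the libraries of a region from 1 to 5 without saying whether they came from separate embryos, so p-values measure the spread between these libraries, which may in part be technical.

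Notch is a receptor that is read out by contact between neighbouring cells. A ligand of the Delta (DLL) or Jagged (JAG) family on one cell pulls on the receptor of another, the receptor is cut inside the membrane, and its freed inner part joins RBPJ and a Mastermind (MAML) protein on DNA to switch on the HES and HEY repressors. In the vertebrate retina these repressors hold down proneural factors and keep progenitors from becoming neurons, and the pathway is also used by Müller glia and by growing blood vessels, where DLL4 is the ligand best known.

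A library held between 15177438 and 27035312 counted reads. Values are given as CPM, reads per 1000000 of the scaled library total, and CPM is not corrected for gene length, so that levels are compared between regions for the same gene and not between genes. Central replicate 4 stood apart: it listed 14994 gene models with reads, against 17491 to 18617 in the other libraries, and its summed level was the highest of all libraries for the markers of endothelium (345 CPM), mural cells (166 CPM), cartilage and sclera (622 CPM) and pigment epithelium (2459 CPM). Markers of retinal neurons summed to 6046 to 9473 CPM in temporal, 5688 to 7722 CPM in nasal and 7724 to 9918 CPM in central, so that nasal lay just below central without overlap. Lens markers summed to 8.81 to 17.1 CPM in temporal, 3.84 to 5.40 CPM in nasal and 11.98 to 23.0 CPM in central, and nasal overlapped neither other region. Their part in the differences of the members was not tested. In these bulk samples, more cells of a type cannot be told apart from more RNA per cell. Differences are log2 fold changes from the quasi-likelihood test of edgeR, with p adjusted by Benjamini-Hochberg over all 15910 gene models tested, and a gene model was called at an adjusted p under 0.05. Of the 14 tested gene models of retinal neuron markers, 8 were called for nasal minus central (57.1%, against 18.4% of all). Of these, 4 were higher and 4 lower in nasal, so the lower sum does not hold for each marker.

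DLL1, NOTCH1, HEY1 and 1 of the copies of HES5 were higher in the nasal than in the central region, by 1.59-fold to 2.06-fold. Of the 9 tested gene models, 4 were called between these regions (44.4%), all higher, against 18.4% of all gene models called and 7.94% called higher. Between the temporal and central regions 1 of the 9, NOTCH1, was called, as higher, against 6.78% of all gene models called and 3.24% called higher. Between the temporal and nasal regions none was called (0 of 9, against 6.59% of all), although 6 of the 9 had an unadjusted p under 0.05, against 17.9% of all. These 6 did not point the same way. DLL1, HEY1 and both HES5 copies were lower in temporal, while DLL4 and the JAG1 gene model ANOSAT001925 were higher. DESeq2 called 5, 1 and 0 members in these comparisons, against 21.8%, 9.46% and 9.52% of all gene models. Limma-voom with quality weights called 5, 3 and 3, against 29.2%, 9.94% and 15.2% of all. None of these fits used the replicate numbers. With the replicate number as a block in the edgeR fit, 5, 2 and 2 members were called, against 27.9%, 12.7% and 13.9% of all.

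The median log2 fold change of the 9 tested gene models was 0.57 for nasal minus central, against 0.029 over all gene models tested. That median is the value of the JAG1 copy ANOSAT015657, which had 135 reads and ran from -0.056 to 0.83 over the alternative settings. The median of the 9 is therefore uncertain. The median of the members was 0.33 for temporal minus central, against 0.0060 over all, and -0.41 for temporal minus nasal, against -0.011 over all. The 3 comparisons share libraries, so they are not independent of each other.

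**Figure D1:**
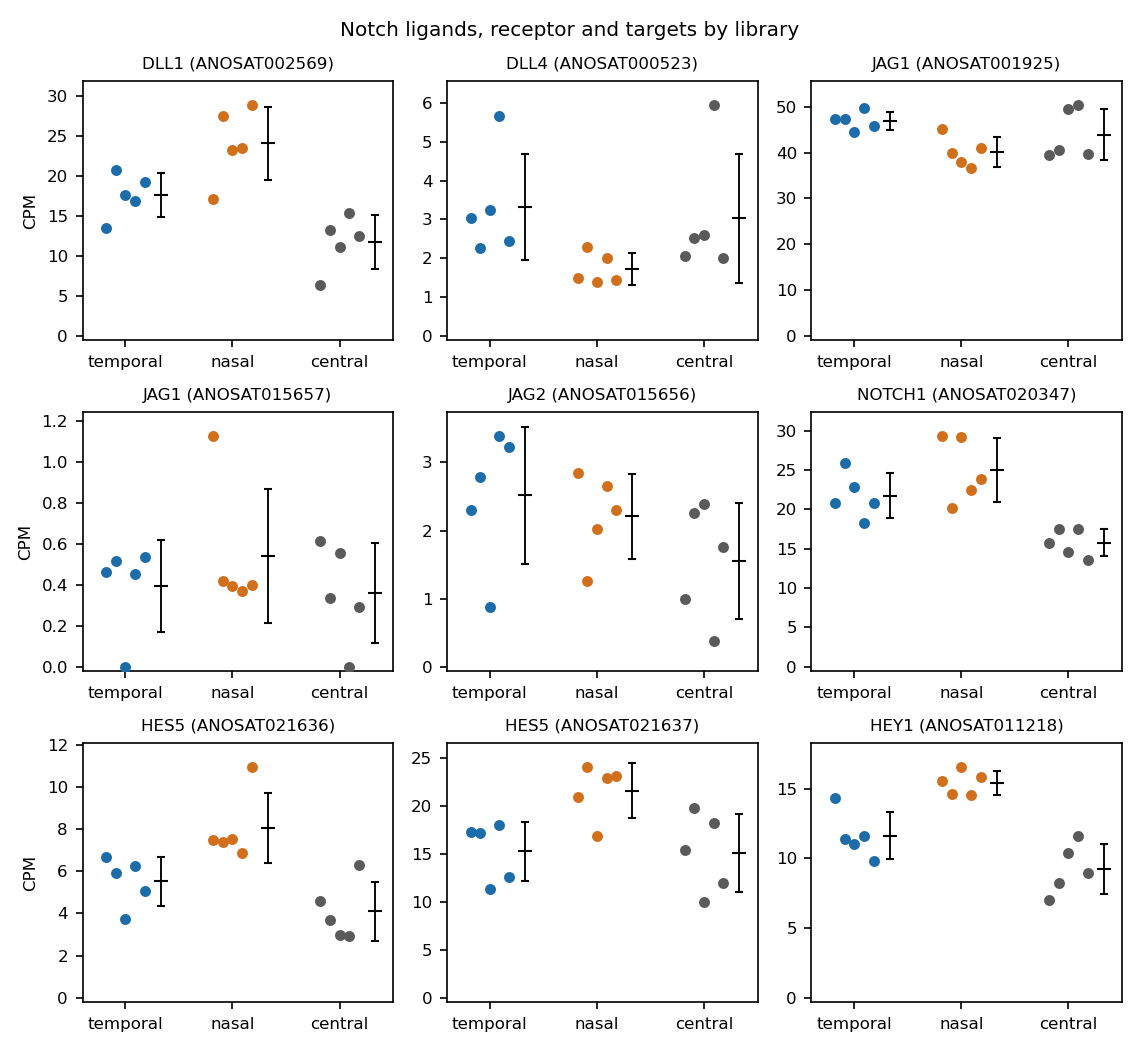
Level in CPM (vertical axis, from 0) of the 9 tested gene models in each of the 15 libraries, by region. Points are libraries, in replicate order from left to right, and the bar beside them is the mean ± SD (n = 5). The 5 nasal libraries lie above all 5 central libraries for DLL1, NOTCH1, HEY1 and the HES5 copy ANOSAT021636.

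DLL1, a Delta ligand carried by cells that are starting to become neurons, had 13.4, 20.7, 17.6, 16.8 and 19.2 CPM in temporal replicates 1 to 5. It had 17.1, 27.4, 23.2, 23.5 and 28.9 CPM in the nasal libraries and 6.40, 13.2, 11.0, 15.3 and 12.5 CPM in the central libraries. The nasal libraries did not overlap the central ones, while the temporal libraries overlapped both other regions. Replicate 1 had the lowest value in each of the 3 regions. The region means were 17.6 ± 2.76 CPM in temporal, 24.0 ± 4.57 CPM in nasal and 11.7 ± 3.34 CPM in central (SD, n = 5 each). DLL1 rose in nasal against central by 1.04 ± 0.200 on the log2 scale (SE, adjusted p = 0.00104), in 5 of 5 pairs of libraries with the same number.

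The temporal level of DLL1 was above the central one in 5 of 5 same-numbered pairs, with a log2 fold change of 0.59 ± 0.200 (SE) that missed the threshold (adjusted p = 0.0947). Temporal minus nasal was -0.45 ± 0.197 (SE, adjusted p = 0.224), below 0 in 5 of 5 pairs. The replicate numbers pair the libraries, and with the number as a block in the fit both differences passed (adjusted p = 0.00392 against central and 0.0235 against nasal). Without central replicate 4, the temporal minus central difference also passed in the unblocked fit (0.70, adjusted p = 0.0382). Both differences also passed with limma-voom, which used no block.

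DLL4, the Delta ligand of sprouting vessels that is also made by newly forming retinal neurons, was read at a low level, 810 reads in all. It had 3.03, 2.27, 3.25, 5.66 and 2.44 CPM in the temporal libraries, 1.503, 2.30, 1.38, 2.01 and 1.43 CPM in the nasal libraries and 2.06, 2.52, 2.61, 5.96 and 2.002 CPM in the central libraries. Replicate 4 was the high library in both temporal and central, at 5.66 and 5.96 CPM, and the nasal libraries overlapped both other regions. DLL4 was not called in any comparison. Nasal minus central was -0.81 ± 0.359 on the log2 scale (SE, adjusted p = 0.138), below 0 in 5 of 5 pairs, and temporal minus nasal was 0.95 ± 0.358 (SE, adjusted p = 0.142), above 0 in 4 of 5 pairs. Temporal minus central was 0.14 ± 0.352 (SE, adjusted p = 0.903).

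The library with the most DLL4, central replicate 4, was also the library with the most endothelial marker reads. Its 15 endothelial marker gene models summed to 345 CPM, against 184 to 235 CPM in temporal, 178 to 219 CPM in nasal and 197 to 213 CPM in the other central libraries. Temporal replicate 4, with 5.66 CPM of DLL4, had the highest endothelial sum of its region at 235 CPM. The 3 lowest DLL4 levels were nasal, and the median endothelial sum was 199.8 CPM in temporal, 199.5 CPM in nasal and 204.6 CPM in central. Of 12 endothelial gene models tested, 2 were lower in nasal than in central (16.7%, near the 18.4% of all gene models), PECAM1 by -1.49 and a copy of KDR by -0.74 on the log2 scale (adjusted p = 0.00123 and 0.00614). The median log2 fold change of the 12 was -0.76 for nasal minus central, against 0.029 over all gene models tested. It was -0.24 for temporal minus central and 0.33 for temporal minus nasal, so the near-equal sums do not show the typical marker. Left out of the fit, central replicate 4 moved the nasal minus central difference of DLL4 to -0.41 (adjusted p = 0.364), and temporal minus nasal passed at 0.95 (adjusted p = 0.0371). The part of vessel content in these differences was not tested.

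**Figure D2:**
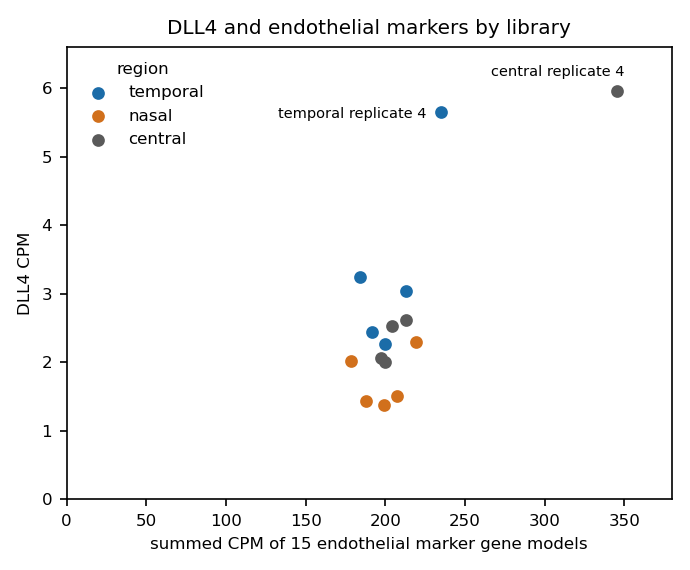
DLL4 level in CPM (vertical axis) against the summed CPM of the 15 endothelial marker gene models (horizontal axis) in each of the 15 libraries, coloured by region. Central replicate 4 and temporal replicate 4 carry 5.96 and 5.66 CPM of DLL4, while the other libraries lie between 1.38 and 3.25 CPM.

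JAG1, a Jagged ligand of progenitors and of lens and vessel cells, was not called in any comparison. Its main gene model (ANOSAT001925, 13423 reads) had 44.5 to 49.7 CPM in temporal (median 47.4), 36.7 to 45.2 CPM in nasal (median 39.9) and 39.4 to 50.5 CPM in central (median 40.6). The ranges overlapped in each comparison. Nasal minus central was -0.13 (95% interval -0.33 to 0.065, adjusted p = 0.423) and temporal minus central was 0.10 (-0.10 to 0.29, adjusted p = 0.724), intervals that leave out the 1.04 of DLL1. Temporal minus nasal was 0.23 (0.031 to 0.42, adjusted p = 0.230), above 0 in 5 of 5 pairs, and it passed the threshold in 1 of 24 alternative settings.

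Neither of the remaining Jagged gene models that could be tested was called. The second JAG1 gene model (ANOSAT015657, 135 reads) had at most 1.13 CPM, in nasal replicate 1, and no read in temporal replicate 3 or central replicate 4, and its nasal minus central difference was 0.57 ± 0.728 (SE, adjusted p = 0.667). JAG2 (ANOSAT015656, 668 reads) had 0.875 to 3.39 CPM in temporal, 1.25 to 2.84 CPM in nasal and 0.385 to 2.39 CPM in central, with log2 fold changes of 0.68 ± 0.445 for temporal minus central and 0.49 ± 0.446 for nasal minus central (SE, adjusted p = 0.492 and 0.514). The intervals of JAG2, -0.19 to 1.56 and -0.38 to 1.36, still hold a change as large as that of DLL1.

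The Jagged copies differ in their surroundings as well as in their reads. The JAG1 gene model with most reads shares all 6 of its named neighbours in the table with the JAG1 gene of the RefSeq annotation of rAnoSag1, among them SNAP25, MKKS and BTBD3. For JAG2, the gene model that shares all 6 neighbours (ANOSAT000186, beside BRF1, NUDT14 and GPR132) is the untested one, with 45 reads over 12 libraries. The tested JAG2 stands in the table beside the spare JAG1 copies and PTGIR, GNG8 and PPP5C, and shares none of its neighbours (0 of 5) with the RefSeq JAG2. The spare JAG1 copies ANOSAT015657 and ANOSAT015659 share none of theirs with the RefSeq JAG1 (0 of 5 and 0 of 4). The identity of the tested JAG2 and of both spare JAG1 copies therefore rests on the symbol in the table alone. The tested JAG2 and ANOSAT015657, counted here as separate members, varied together over the libraries (Pearson r = 0.76, or 0.80 with the region means taken out). Whether they are parts of 1 gene was not tested. The third JAG1 copy (ANOSAT015659) had 1 read in all. The table gives no coordinates, and its row order was taken as gene order without a test.

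NOTCH1, the receptor most studied in retinal progenitors, was the only receptor of the list in the table, and it was lowest in the central region. It had 20.8, 25.9, 22.9, 18.3 and 20.9 CPM in the temporal libraries, 29.4, 20.2, 29.2, 22.4 and 23.8 CPM in the nasal libraries and 15.8, 17.5, 14.5, 17.4 and 13.6 CPM in the central libraries. All 5 temporal and all 5 nasal libraries lay above the highest central one, and temporal and nasal overlapped. NOTCH1 rose in nasal against central by 0.67 ± 0.137 (SE, adjusted p = 0.00188), a 1.59-fold difference seen in 5 of 5 pairs. The groups of 4 of the 9 members did not overlap in this comparison, against 13.3% of all gene models.

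NOTCH1 also rose in temporal against central, by 0.46 ± 0.137 (SE, 1.38-fold, 5 of 5 pairs), but at an adjusted p of 0.0497 that lay at the threshold. Its temporal and central libraries did not overlap, which was so for 1 of the 9 members, against 7.29% of all gene models. The call was lost in 14 of 24 alternative settings, with adjusted p up to 0.154. These were RLE scaling (0.0512), no filter on low counts (0.0618), the fit of the 2 regions alone (0.0739), and leaving out any of central replicates 1, 2, 3 and 5, nasal replicates 3, 4 and 5 or temporal replicates 1, 2, 3 and 5 (0.0563 to 0.154), while the log2 fold change stayed between 0.40 and 0.49. With the replicate block the adjusted p was 0.0323. Temporal minus nasal was -0.20 ± 0.136 (SE, 95% interval -0.47 to 0.066, adjusted p = 0.512).

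HES5, the repressor that most directly follows Notch activity in retinal progenitors and Müller glia, is present as a pair of gene models next to each other in the table. If the copies are close in sequence, reads may be split between them by the counting, so each value is uncertain and the sum is given as well. The RefSeq annotation of rAnoSag1 holds no protein-coding gene with the symbol HES5, so neighbours could not be compared. Beyond the symbol in the table, the identity of both copies as HES5 was therefore not checked. PANK4, TNFRSF14 and PEG10 were table neighbours of both copies, and were not compared with a HES5 locus elsewhere. ANOSAT021636 had 6.65, 5.93, 3.75, 6.24 and 5.04 CPM in temporal, 7.46, 7.39, 7.53, 6.88 and 11.0 CPM in nasal and 4.56, 3.71, 2.996, 2.95 and 6.30 CPM in central. The nasal libraries lay above those of both other regions without overlap. This copy rose in nasal against central by 0.97 ± 0.240 (SE, adjusted p = 0.00781, 5 of 5 pairs).

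ANOSAT021637, the HES5 copy with more reads, had 17.3, 17.2, 11.3, 18.1 and 12.6 CPM in temporal, 20.9, 24.1, 16.9, 22.9 and 23.2 CPM in nasal and 15.5, 19.8, 10.04, 18.3 and 12.01 CPM in central. Replicate 3 had its lowest value in each of the 3 regions, and nasal was the highest region at each replicate number. Nasal minus central was 0.51 ± 0.188 (SE) and missed the threshold (adjusted p = 0.0674), but passed with the replicate block (adjusted p = 0.00280) and in 6 of 24 settings in all, among them without central replicate 2 (0.61, adjusted p = 0.0386) and without central replicate 4 (0.59, adjusted p = 0.0381). Temporal minus central was 0.014 ± 0.189 (SE, 95% interval -0.36 to 0.38).

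Both HES5 copies were lower in temporal than in nasal in 5 of 5 pairs, by -0.54 ± 0.237 and -0.50 ± 0.188 (SE), without passing the threshold (adjusted p = 0.224 and 0.139). The block brought the second copy past it (adjusted p = 0.00817) and left the first short (0.104). Summed over both copies, HES5 rose in nasal against central by 0.62 ± 0.166 (SE, adjusted p = 0.0126) and was 0.11 ± 0.166 above central in temporal (adjusted p = 0.815). The sum was at -0.51 in temporal against nasal (adjusted p = 0.0770, or 0.00480 with the block). The first copy made up 24.9 to 28.6% of the sum in temporal, 23.1 to 32.1% in nasal and 13.9 to 34.4% in central.

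HEY1, a HES relative that answers to Notch in vessels, heart and nervous system, had 14.4, 11.4, 11.1, 11.6 and 9.79 CPM in the temporal libraries. It had 15.6, 14.6, 16.6, 14.6 and 15.9 CPM in the nasal libraries and 7.01, 8.27, 10.4, 11.6 and 8.98 CPM in the central libraries. The nasal libraries were the tightest of the 3 groups (15.4 ± 0.867 CPM, against 11.6 ± 1.68 in temporal and 9.25 ± 1.79 in central, SD, n = 5 each) and overlapped neither other region. Between temporal and nasal, HEY1 and the HES5 copy ANOSAT021636 were the 2 of 9 members whose libraries did not overlap, against 9.13% of all gene models. HEY1 rose in nasal against central by 0.74 ± 0.152 (SE, adjusted p = 0.00181, 5 of 5 pairs). Temporal minus central was 0.33 ± 0.152 (SE, adjusted p = 0.264) and temporal minus nasal -0.41 ± 0.151 (SE, adjusted p = 0.130, 5 of 5 pairs below 0). Of 24 alternative settings, temporal minus central passed in 1, limma-voom (adjusted p = 0.0473). Temporal minus nasal passed in 2, limma-voom and the block without central replicate 4. The HEY1 gene model shares 2 of its 5 table neighbours, STMN2 and TPD52, with the RefSeq HEY1.

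The gene models named HES1, the other classical Notch target, were close to unread. They had 29 reads (ANOSAT004058) and 39 reads (ANOSAT006891) over all 15 libraries. The first of them shares none of its 6 table neighbours with the RefSeq HES1, so its identity rests on the symbol in the table alone. The second shares OPA1, 1 of 3. Neither could be tested. The low counts are those of these gene models, and whether HES1 is read elsewhere in the genome was not tested. HES4, a close relative of HES1 that mice lack, was read throughout (5679 reads), with 16.8 to 33.1 CPM in temporal, 14.2 to 25.2 CPM in nasal and 8.10 to 19.9 CPM in central. Its temporal minus central difference of 0.81 ± 0.252 (SE) was not called (adjusted p = 0.0647), though it passed with the replicate block (0.0357), and nasal minus central was 0.34 ± 0.252 (SE, adjusted p = 0.406).

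Set in order, the region means of DLL1, NOTCH1, HEY1 and the HES5 copy ANOSAT021636 were highest in nasal and lowest in central. That of the HES5 copy ANOSAT021637 was highest in nasal, and its temporal and central means lay level, the sign of their difference changing with the library left out. Those of DLL4 and the main JAG1 were highest in temporal and lowest in nasal, and that of JAG2 was highest in temporal and lowest in central. Between pairs of DLL1, NOTCH1, HEY1 and the HES5 copy ANOSAT021636, Pearson r was 0.54 to 0.78 over all libraries. With the region means taken out, r was -0.29 to 0.28, so these members did not vary together closely within regions. NOTCH1 did not differ beyond its spread between nasal and temporal. Neither DLL1, HEY1 nor the HES5 copies differed past the threshold between nasal and temporal in the unblocked edgeR fit of all libraries. Limma-voom, also without the block, called DLL1 and HEY1 among others there, both lower in temporal (against 15.2% of all gene models called). With the replicate block, 5, 2 and 2 of the 9 members were called for nasal against central, temporal against central and temporal against nasal, against 27.9%, 12.7% and 13.9% of all gene models. The 2 members called between temporal and nasal were DLL1 and the HES5 copy ANOSAT021637, both lower in temporal, against 5.96% of all gene models lower with the block. Without central replicate 4 and without the block, the numbers were 5, 2 and 1, against 20.6%, 7.36% and 9.24% of all gene models. The 4 nasal calls over central held in each of 24 alternative settings.

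**Figure D3:**
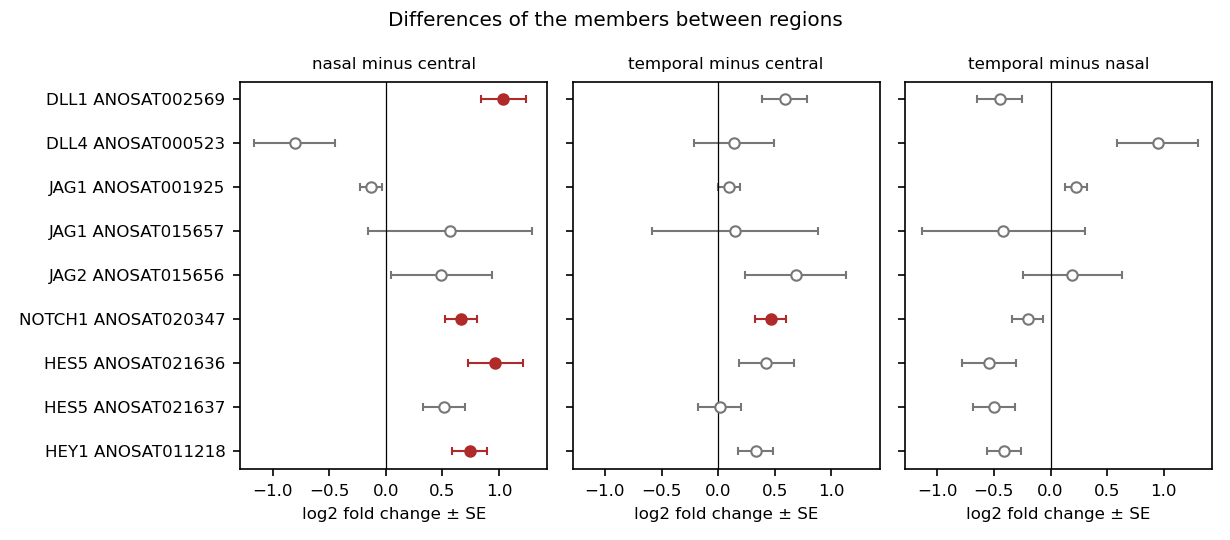
Log2 fold change ± SE (horizontal axis) of the 9 tested gene models in the 3 comparisons. Filled red points passed an adjusted p of 0.05 and open points did not. The fit has no replicate block. Against central, 4 members are called higher in nasal and 1 in temporal, and 0 are called for temporal minus nasal.

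The other genes of the pathway were taken from lists of 50 symbols, ordered by role. Of these, 46 were found, on 56 gene models, and 48 gene models were tested. Nasal against central called 8 (16.7%, near the 18.4% of all gene models), 5 higher and 3 lower. Temporal against central called 3, all higher, and temporal against nasal called 3, 2 higher and 1 lower (6.25% each, near the 6.78% and 6.59% of all). The medians of the 48 on the log2 scale were 0.18, 0.031 and -0.080. With the replicate block the counts were 15, 6 and 5 (31.3%, 12.5% and 10.4%, near the 27.9%, 12.7% and 13.9% of all).

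Among the other ligands, DNER was the gene that differed. DNER is a membrane protein of neurons described as a non-canonical Notch ligand. It averaged 512 ± 32.5 CPM in temporal, 365 ± 29.1 CPM in nasal and 581 ± 61.0 CPM in central (SD, n = 5 each), and all nasal libraries lay below those of both other regions. It fell in nasal against central by 0.67 on the log2 scale (SE 0.0849, adjusted p = 1.57e-05) and was 0.49 ± 0.0847 higher in temporal than in nasal (SE, adjusted p = 0.00140), the opposite direction to DLL1. DLL3 and DLK2 were not called in any comparison.

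NOTCH3, a receptor of mural cells that retinal progenitors also carry, averaged 113 ± 10.03 CPM in temporal, 96.7 ± 3.596 CPM in nasal and 82.1 ± 19.0 CPM in central (SD, n = 5 each). In central replicate 4 it reached 115 CPM, against 66.7 to 77.5 CPM in the other central libraries, and the mural marker sum of that library was also the highest. NOTCH3 rose in temporal against central by 0.46 ± 0.120 (SE, adjusted p = 0.0237). The call was lost in 9 of 24 settings: the fit of 2 regions alone, and leaving out central replicate 1, 2, 3 or 5 or temporal replicate 2, 3, 4 or 5 (adjusted p 0.0552 to 0.0820). Without central replicate 4 the rise was 0.62 (adjusted p = 0.000136), and NOTCH3 then passed in nasal against central as well, at 0.39 (adjusted p = 0.00311), where it stood at 0.24 (adjusted p = 0.201) with all libraries and passed with the block (0.0458).

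LFNG, the Fringe enzyme that adds sugars to Notch and tunes it towards Delta ligands, rose most of the pathway genes called. It had 17.1, 15.7, 15.7, 13.4 and 13.9 CPM in temporal, 20.98, 18.1, 19.6, 19.9 and 25.3 CPM in nasal and 7.63, 7.90, 9.21, 1.41 and 9.72 CPM in central. The ranges of the 3 regions did not overlap, and central replicate 4 was the low library at 1.41 CPM. LFNG rose by 1.53 ± 0.300 in nasal and by 1.07 ± 0.299 in temporal, both against central (SE, adjusted p = 0.00124 and 0.0363), and by 1.27 and 0.81 with central replicate 4 left out (adjusted p = 2.46e-06 and 0.000775). The temporal call was lost in 9 of 24 settings (adjusted p 0.0501 to 0.104): the fit of 2 regions alone and leaving out central replicate 1 or 2, nasal replicate 4 or any of temporal replicates 1 to 5. Temporal minus nasal was -0.46 ± 0.291 (SE, adjusted p = 0.475). Of the other Fringe enzymes, MFNG had 69 reads in all and was not tested, and RFNG was not called.

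**Figure D4:**
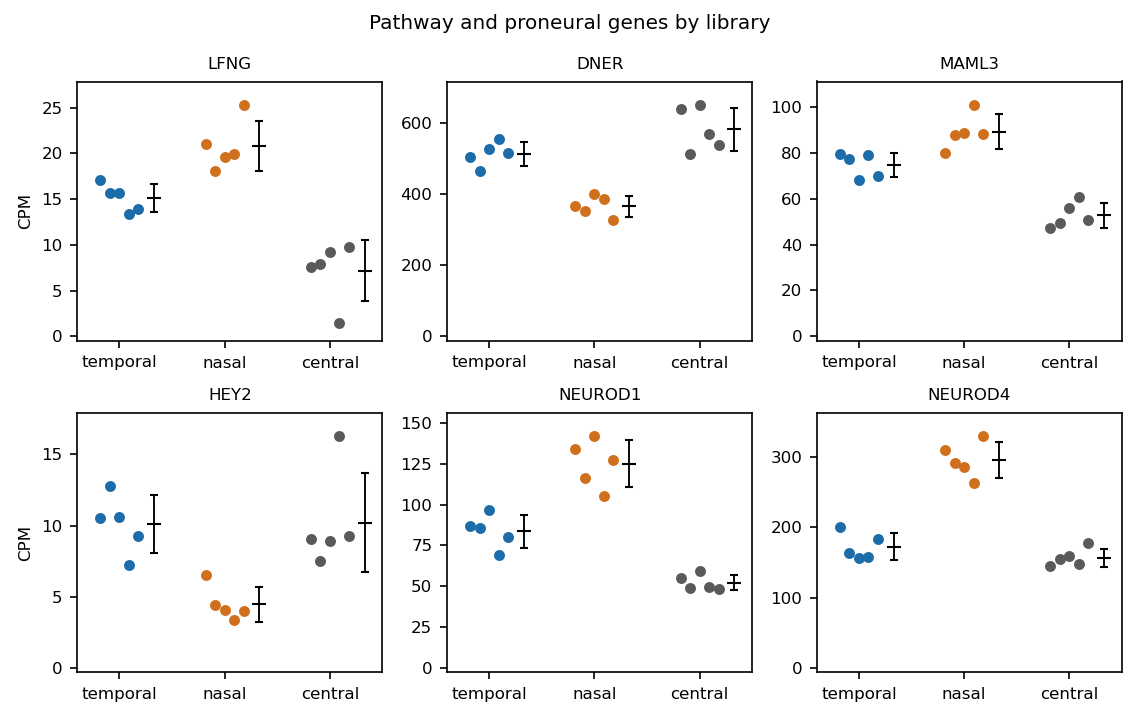
Level in CPM (vertical axis, from 0) of LFNG, DNER, MAML3, HEY2, NEUROD1 and NEUROD4 in each of the 15 libraries, by region, with the mean ± SD (n = 5). The LFNG, MAML3, NEUROD1 and NEUROD4 values of nasal lie above all central ones, and those of DNER and HEY2 below.

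Of the enzymes that act on the ligand and cut the receptor, few were called. MIB1, the ubiquitin ligase that a Delta ligand needs in the sending cell, rose in nasal against central by 0.47 ± 0.141 (SE, adjusted p = 0.0246), a call lost in 5 of 24 settings, with the 2 regions alone or without central replicate 1 or 2 or nasal replicate 4 or 5 (adjusted p 0.0508 to 0.0924). PSEN2, a catalytic subunit of the gamma-secretase that cuts the receptor, rose by 0.37 ± 0.0918 (SE, adjusted p = 0.00860). The other 9 tested gene models of receptor cleavage, among them ADAM10, ADAM17, NCSTN and PSENEN, were not called in any comparison.

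Of the 9 tested gene models of the nuclear complex, 2 were called for nasal minus central, MAML2 and MAML3 (22.2%, near the 18.4% of all gene models). For temporal minus central and temporal minus nasal, 1 each was called (11.1%, against 6.78% and 6.59% of all). MAML3 averaged 74.9 ± 5.32 CPM in temporal, 89.3 ± 7.51 CPM in nasal and 52.8 ± 5.55 CPM in central (SD, n = 5 each). Both temporal and nasal lay above central without overlap, by 0.50 ± 0.0929 and 0.76 ± 0.0930 (SE, adjusted p = 0.00187 and 1.08e-05). MAML2 rose in nasal against central by 0.43 ± 0.109 (SE, adjusted p = 0.00982) and fell in temporal against nasal by 0.38 on the log2 scale (SE 0.109, adjusted p = 0.0420), the second call being lost in 10 of 24 settings: with no filter, and without central replicate 1 or 2, nasal replicate 3 or 4 or any of temporal replicates 1 to 5 (adjusted p 0.050025 to 0.138). RBPJ, the DNA-binding partner, was at 0.37 ± 0.137 in nasal minus central (SE, adjusted p = 0.0706) and passed with the block (0.00981).

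Among negative regulators, DTX4, a Deltex ubiquitin ligase, fell in nasal against central by 0.50 on the log2 scale (SE 0.150, adjusted p = 0.0251). Without nasal replicate 2 or 5 it no longer passed (adjusted p = 0.0651 and 0.0732). NRARP, a feedback inhibitor that Notch itself switches on, had 1.19 to 2.87 CPM in temporal, 1.58 to 3.01 CPM in nasal and 0.610 to 2.08 CPM in central, and nasal minus central was 0.83 ± 0.386 (SE, adjusted p = 0.154). NUMB, NUMBL, ITCH and FBXW7 were not called.

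HEY2, a close relative of HEY1, was lowest in the nasal region, where HEY1 was highest. Libraries within a region did not show this opposition. The Pearson r of HEY1 and HEY2 was -0.55 over all libraries and 0.42 with the region means taken out. HEY2 had 10.5, 12.8, 10.6, 7.20 and 9.29 CPM in temporal, 6.55, 4.38, 4.09, 3.34 and 4.01 CPM in nasal and 9.07, 7.49, 8.88, 16.3 and 9.23 CPM in central. All nasal libraries lay below those of both other regions. HEY2 fell in nasal against central by 1.18 on the log2 scale (SE 0.237, adjusted p = 0.00148) and by 0.95 without central replicate 4 (adjusted p = 0.00204), and it was 1.17 ± 0.237 higher in temporal than in nasal (SE, adjusted p = 0.00455). The ratio of HEY1 to HEY2 within a library was 0.891 to 1.62 in temporal, 2.38 to 4.37 in nasal and 0.713 to 1.17 in central, so that the nasal range stood apart from both others. HES6, which opposes other HES proteins in the mouse, had no read in central replicate 4 and 0.555 to 3.64 CPM elsewhere. It was at 1.56 ± 0.546 in nasal minus central (SE, adjusted p = 0.0559, or 0.0210 with the block).

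**Figure D5:**
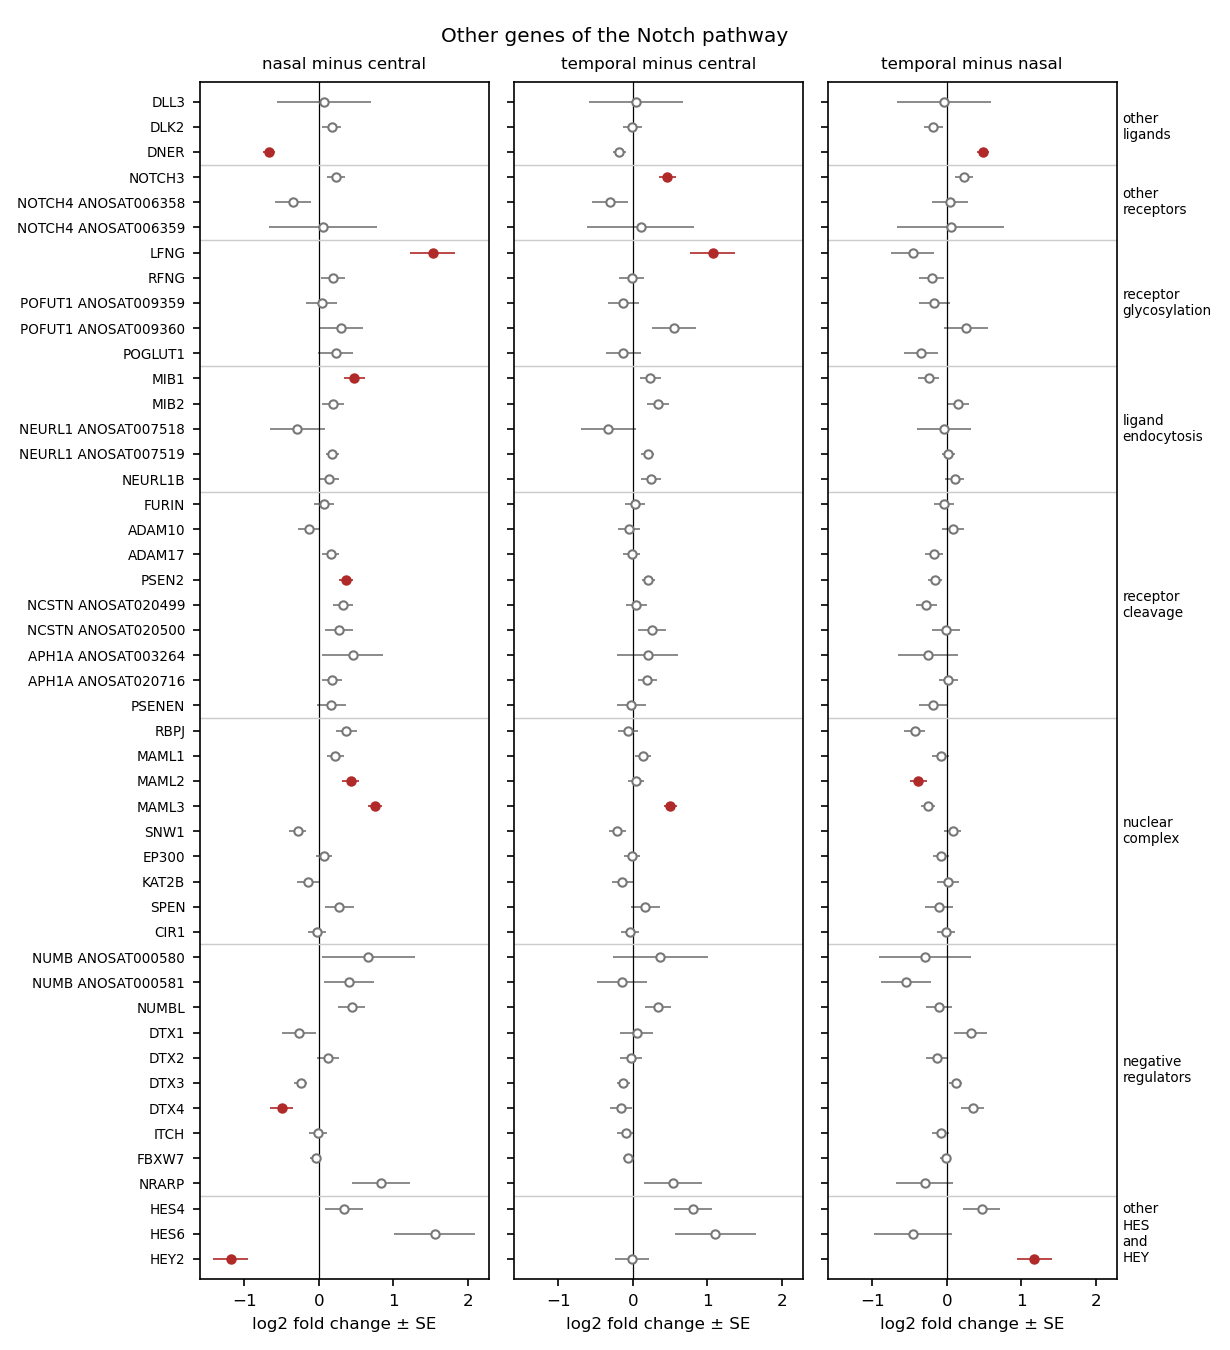
Log2 fold change ± SE (horizontal axis) of tested gene models of the other pathway lists, grouped by role, in the 3 comparisons. Filled red points passed an adjusted p of 0.05, and these are 8, 3 and 3 of the 48 gene models tested, of which 1 that was not called is not drawn.

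The proneural factors are the genes that Notch targets hold down. Of 8 tested gene models, 3 rose in nasal against central (37.5%, against 18.4% of all gene models), 1 rose in temporal against central (12.5%, against 6.78%) and 2 fell in temporal against nasal (25.0%, against 6.59%). NEUROD1, which drives photoreceptor and amacrine cells, averaged 83.5 ± 10.2 CPM in temporal, 125 ± 14.5 CPM in nasal and 52.2 ± 4.83 CPM in central (SD, n = 5 each), and the 3 regions did not overlap. It rose by 1.26 ± 0.107 in nasal and by 0.68 ± 0.106 in temporal, both against central (SE, adjusted p = 1.25e-07 and 0.000410), and fell in temporal against nasal by 0.58 (SE 0.105, adjusted p = 0.00188).

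NEUROD4, a related factor of newly formed neurons, averaged 173 ± 18.9 CPM in temporal, 296 ± 25.3 CPM in nasal and 157 ± 12.9 CPM in central (SD, n = 5 each). It rose in nasal against central by 0.92 ± 0.0906 (SE, adjusted p = 8.17e-07) and fell in temporal against nasal by 0.78 (SE 0.0904, adjusted p = 2.57e-05). Temporal minus central was 0.14 ± 0.0901 (SE, adjusted p = 0.493), so that the high region of NEUROD4 was nasal alone. INSM1, a zinc finger factor of cells leaving the cycle, rose in nasal against central by 1.14 ± 0.265 (SE, adjusted p = 0.00504).

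Of 16 tested gene models of retinal progenitor markers, 6 were higher in nasal than in central, among them RAX, and 1, SOX2, was lower (7 of 16, 43.8%, against 18.4% of all gene models), while their summed level overlapped, at 1508 to 1846 CPM in temporal, 1540 to 2084 CPM in nasal and 1426 to 1935 CPM in central. RAX, a homeobox factor of the early eye field and of progenitors, rose by 0.54 in nasal against central (adjusted p = 0.00712). Müller glia markers summed to 3228 to 3809 CPM in temporal, 2670 to 2892 CPM in nasal and 2846 to 3539 CPM in central. Of 9 tested Müller gene models, 3 were lower in nasal than in central, RLBP1, GLUL and CLU, and 1, SLC1A3, was higher (4 of 9, 44.4%, against 18.4% of all). The call of SLC1A3 was lost in 5 of 24 settings, with the 2 regions alone and without central replicate 1 or 2 or nasal replicate 2 or 4 (adjusted p 0.0531 to 0.0812). The part of progenitor, neuron and glia content in the differences of the Notch genes was not tested.

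As a description over the 15 libraries, which share the regions, the gene models whose log2 CPM was most like that of a called member were PDIA4 (Pearson r = 0.94), SPATS2 (0.93) and TGIF2 (0.92) for DLL1. They were NPTX1 (0.91), SNAP47 (0.90) and SAMD11 (0.90) for NOTCH1, and MAPRE1 (0.91), VWDE (0.90) and EIF2A (0.90) for the HES5 copy ANOSAT021636. For HEY1 they were BAG2 (0.95), SAMD7 (0.94) and HIP1R (0.93). With the region means taken out, r was between 0.68 and 0.92 for these 12 pairs. No pathway gene and no other member was among them.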

How the data were processed

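RNA-seq of 15 embryonic eye libraries of *A. sagrei* was analysed, 5 per region. The table holds whole-number counts, as deposited by the authors, with a symbol beside each gene model and no normalization. The submitters' processing notes name HISAT2 2.2.1 and featureCounts. The libraries were made with a stranded mRNA kit, but the strand setting of the counter and the genome build it used were not given in the sources used here. The table stops without a line break, so rows may be missing at its end. Of the 20235 gene models, 15874 have a symbol found in the rAnoSag1 table of RefSeq, which was used only for names and for neighbouring genes (3 named table neighbours on each side against 10 RefSeq genes on each side). No gene sequences were used.

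Counts were compared in R 4.3.3 with edgeR 4.0.16: filterByExpr by region at a minimum count of 10, TMM scaling (factors 0.975 to 1.02), 1 robust quasi-likelihood fit of all 15 libraries and Benjamini-Hochberg adjustment over 15910 gene models, with a threshold of 0.05. CPM are counts per 1000000 of the TMM-scaled total. The SE was derived from the log2 fold change and its F statistic. The fit was tested on simulated counts drawn without any effect of the replicate number. That test could not show how the unblocked fit behaves when replicate numbers pair the libraries. The settings tried beside it were upper-quartile or RLE scaling, a minimum count of 50 or no filter, fits of only the 2 regions compared, the replicate number as a block, DESeq2 1.42.0, limma-voom with quality weights (limma 3.58.1), and fits with each library dropped once. The block without central replicate 4 and the sum of gene models of 1 symbol were added after seeing the data. No library repeats another of its region, since chi-square over its degrees of freedom was 10.7 to 69.7 in the 30 pairs of libraries within a region. Libraries of different regions were not compared in this way. Figures were made in matplotlib 3.10.9 under Python 3.11.15.

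To see whether replicate numbers pair the libraries, the deviations of each library from its region mean were correlated with those of the libraries of other regions (over gene models, which are no independent replicates). The r was 0.193 to 0.524 (median 0.389) for libraries that share a number, over 0.1 in 15 of 15 pairs, and -0.339 to 0.256 (median -0.109) for the rest, over 0.1 in 3 of 60 pairs, so the numbers pair the libraries, although the labels do not say what a number shares. The members and the gene lists were chosen with earlier results of these data known. All members are named, as are the pathway genes (up to 14) and proneural genes (up to 6) that passed in any comparison, up to 3 genes of a marker list, and the 3 gene models most like each called member. Other pathway and marker genes were named after their values were seen. A few genes of these lists are not reported here by name.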

Additional observations from a re-analysis of the deposited data

Results flagged for a closer look

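Within a region of 5 libraries, the value farthest from the others was compared with Dixon's critical value (0.71) for the tested members and the pathway and proneural genes called, 63 groups in all, of which 10 passed. Chance passes about 1 in 20 for independent normal values. The share that passes over all gene models was not computed. The groups share libraries and are not independent: central replicate 4 was the library that stood out for DLL4, NOTCH3, HEY2 and LFNG. The number that passed can therefore not be read as a trait of these genes.

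Among the members, 5 of 27 groups held such a library. DLL4 stood out in replicate 4 of 2 regions, at 5.66 CPM in temporal (2.27 to 3.25 CPM in the other temporal libraries) and 5.96 CPM in central (2.002 to 2.61 CPM in the others). The HES5 copy ANOSAT021636 had 11.0 CPM in nasal replicate 5, against 6.88 to 7.53 CPM in the other nasal libraries. The JAG1 copy ANOSAT015657 had 1.13 CPM in nasal replicate 1, against 0.371 to 0.418 CPM in the others, and 0 CPM in temporal replicate 3, which allows up to 0.188 CPM, against 0.453 to 0.537 CPM in the others.

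Of the pathway genes, 3 stood out in central replicate 4: NOTCH3 at 115 CPM (66.7 to 77.5 CPM in the other central libraries), HEY2 at 16.3 CPM (7.49 to 9.23 CPM) and LFNG at 1.41 CPM (7.63 to 9.72 CPM). NOTCH3 was also low in temporal replicate 1, at 95.5 CPM against 115 to 120 CPM in the other temporal libraries. DTX4 had 36.9 CPM in central replicate 5, against 53.4 to 60.0 CPM in the others.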

How the results depend on the processing

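Under the alternatives, 594 of 642 values of the members kept their direction and their side of the threshold, 14 lost the call, 22 gained it and 12 changed sign, and the cause was not tested. The replicate block called 4437, 2022 and 2214 gene models for nasal minus central, temporal minus central and temporal minus nasal (without central replicate 4 as well, 5095, 2272 and 3378). Limma-voom called 4641 for nasal minus central and 2425 for temporal minus nasal. Leaving out 1 library gave 2404 to 3303 for nasal minus central and 680 (without nasal replicate 5) to 1485 for temporal minus nasal.

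Of the members, temporal minus central called 0 under RLE scaling, with no filter and with only the 2 regions compared. It called 2 with the block (against 12.7% of all gene models) and 2 with the block without central replicate 4 (against 2272 of 16063). It called 3 with limma-voom (against 9.94%) and 0 to 2 when 1 library was left out (against 796 to 1197 gene models). Over all alternative settings, 796 to 2272 gene models were called in this comparison. Temporal minus nasal called 2 with the block (against 13.9% of all gene models) and 5 with the block without central replicate 4 (against 3378 of 16063). It called 3 with limma-voom (against 15.2%) and 0 to 1 when 1 library was left out (against 680 to 1485 gene models). Of the other pathway genes, nasal minus central called 15, 20 and 20 under the block, the block without central replicate 4 and limma-voom. This was against 27.9%, 5095 of 16063 and 29.2% of all gene models. With 1 library left out it called 6 to 13, against 2404 to 3303 gene models. Temporal minus central called 6, 7 and 6 in the same settings, against 12.7%, 2272 of 16063 and 9.94% of all. It called 1 for only the 2 regions compared and 1 to 4 when 1 library was left out (against 796 to 1197 gene models). Temporal minus nasal called 5, 9 and 6, against 13.9%, 3378 of 16063 and 15.2% of all. The block changed no other call of a member than those of DLL1 and the HES5 copy ANOSAT021637.

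The changes of sign were of differences that were not called. The JAG1 copy ANOSAT015657 was at -0.056 in nasal minus central with limma-voom, at -0.57 with limma-voom, -0.095 with the block without central replicate 4 and -0.14 to 0.44 with 1 library left out in temporal minus central, and at -0.55 to 0.017 with 1 library left out in temporal minus nasal. With 1 library left out, temporal minus central ran over -0.16 to 0.53 for DLL4 and over -0.11 to 0.12 for the HES5 copy ANOSAT021637.

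RLE and upper-quartile scaling moved the median of all gene models by less than 0.01. Depth limits the genes with few reads: DLL4, JAG2 and the second JAG1 copy had SEs of 0.352 or more, and 3 reads, the limit that a count of 0 allows, are 0.111 to 0.198 CPM. Such limits cover counting error only.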
